A study of Homo sapiens with 4 samples.

Results

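WNT pathway genes were followed in the RNA-seq of ovarian cancer stem cells (OCSCs) treated with the estrogen receptor β (ERβ) agonist LY500307. The members were chosen by symbol, as all genes named WNT or FZD with a number and 24 further genes for co-receptors, signal transducers, the β-catenin destruction complex, TCF/LEF factors, secreted inhibitors, the R-spondin axis and ligand secretion. This gave 53 of the 23228 gene symbols in the files. The cells were labelled as SKOV3, an established human ovarian cancer line, sorted for aldehyde dehydrogenase activity (ALDH+) with the ALDEFLUOR kit and grown as spheroids in serum-free medium with EGF, bFGF, hydrocortisone and insulin. The vehicle group held 2 samples, and the LY500307 group held 2 samples that received 5 µM LY500307. RNA was taken after 24 h in every sample. All samples came from 1 cell line and the agonist was given at 1 dose. The labels do not say whether replicates were separate cultures, so p-values measure only the spread between these samples, which may be technical.

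WNT proteins are secreted, lipid-modified ligands that bind a Frizzled receptor together with the co-receptor LRP5 or LRP6. Without ligand, a destruction complex built on AXIN and APC lets the kinase GSK3 mark β-catenin for degradation. With ligand, Dishevelled proteins are recruited to the receptor, the complex is disabled, and β-catenin enters the nucleus, where it acts with TCF/LEF factors on target genes such as AXIN2. R-spondins and their LGR receptors raise the pathway's sensitivity by removing RNF43 and ZNRF3, ubiquitin ligases that take Frizzled off the cell surface. The pathway is known for its part in stem cell maintenance, and it is of interest in ovarian cancer for this reason.

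Between 28841701 and 34943882 reads were counted on genes in each sample. The expression filter of edgeR passed 14473 genes, among them 41 of the 53 members. The markers went against parts of the label. ERBB2, for whose amplification SKOV3 is known, had between 48.7 and 59.4 CPM, which are read counts scaled to a common library size, and 6060 of 13643 genes had a higher level per length. The keratin gene KRT8 had between 9 and 33 reads, KRT19 had between 0 and 2, the cadherin gene CDH1 had between 0 and 4, and the Müllerian factor PAX8 had 0 reads in all samples. EPCAM had between 194 and 240 CPM, and KRT18, another keratin gene, had between 23.5 and 31.8 CPM. Of 8 markers of leukocytes, endothelium, fibroblasts and erythrocytes, 0 were without reads in all samples. CD68 had between 11.5 and 17.9 CPM, DCN had between 7.58 and 9.61 CPM, and HBB had between 15 and 52 reads. PTPRC, PECAM1 and CDH5 had between 0 and 4 reads, while the collagen genes COL1A1 and COL1A2 carried most of a summed level that was 458 and 471 CPM in the vehicle samples and 547 and 647 CPM in the LY500307 samples. The part of these collagen differences in the members' values was not tested. Among the aldehyde dehydrogenase genes, ALDH1A2 had at most 11.3 CPM and ALDH1A1 had between 4.71 and 5.41 CPM. Since whole cultures were measured, fewer cells of a type and less RNA per cell cannot be told apart. The line is therefore named below only as the labels give it.

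The question was whether WNT pathway genes differed between LY500307-treated and vehicle-treated OCSCs. With edgeR's quasi-likelihood test and the study's criteria (an absolute log2 fold change above 0.5 with an unadjusted p below 0.05), 1 member, FZD9, was higher with LY500307, and 0 members were lower. Among all genes tested, 2.76% were higher and 1.86% were lower by these criteria. An unadjusted p below 0.05 at any size was reached by 1 of the 41 members tested, where 11.6% of all genes tested reached it. DESeq2 gave 2 members an unadjusted p below 0.05, FZD9 and FZD2. It gave no adjusted p to FZD9 or to some other members with few reads, such as WNT5A and WNT6. An adjusted p below 0.05 was reached by 0 members with edgeR (smallest adjusted p = 0.422, Benjamini-Hochberg over all genes tested). Among the members with an adjusted p from DESeq2, 0 reached it (smallest adjusted p = 0.442, for FZD2). Over all genes tested, edgeR gave 0% an adjusted p below 0.05, while DESeq2 gave it to 16 genes. The median log2 fold change of the members tested was 0.06, and that of all genes tested was -5.64e-05. The smallest two-sided p that exact permutation allows for any gene in a comparison of 2 with 2 samples is 0.333.

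After normalization, both LY500307 samples lay above both vehicle samples for 12 of the 41 members, which is 29.3%, beside 24.2% of all genes tested. Both lay below for 6 members, which is 14.6%, beside 24.4% of all genes tested. Log2 fold changes ranged from -1.10 for WNT5A to 0.97 for WNT6, and 25 members had a positive value and 16 a negative one.

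**Figure D1:**
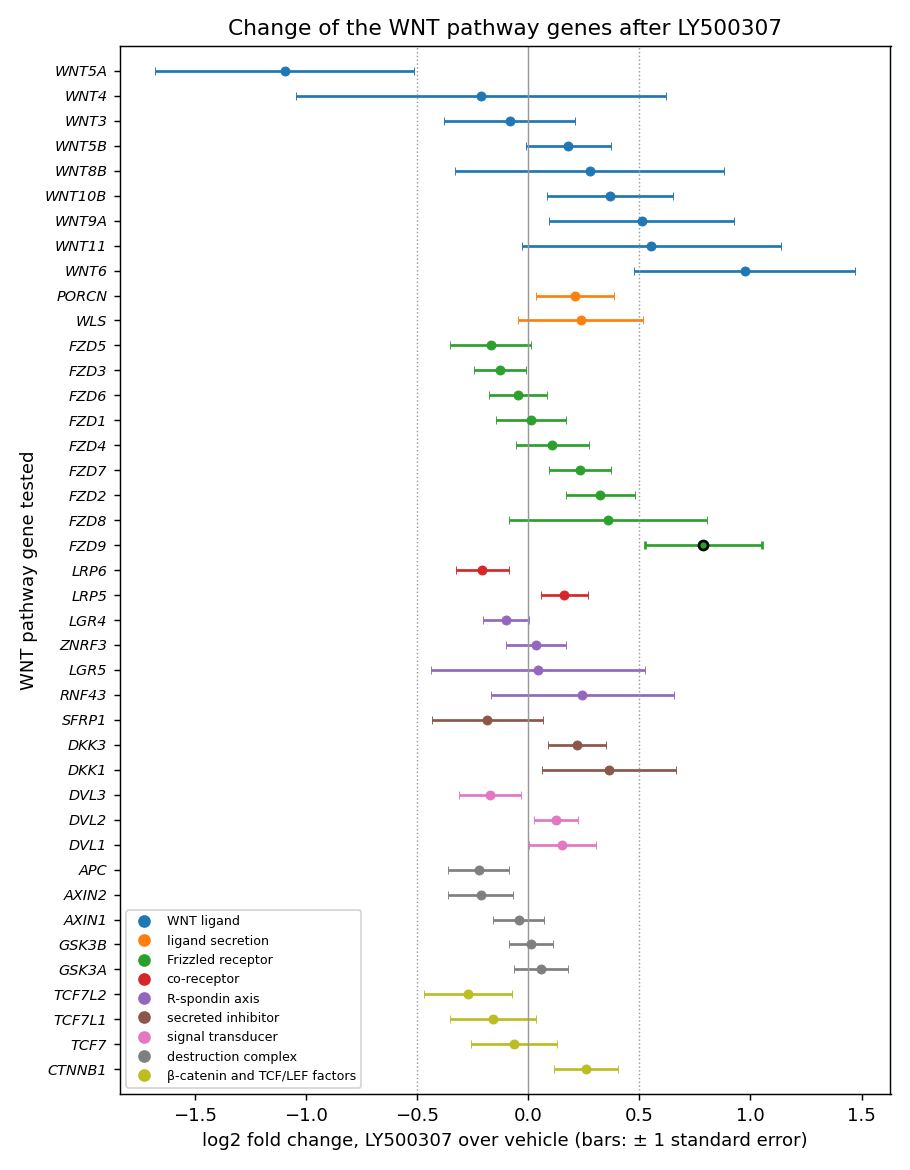
Log2 fold change (LY500307 over vehicle, horizontal axis) of the 41 WNT pathway genes tested by edgeR, grouped and coloured by role, with bars of ± 1 standard error. Dotted lines mark the limit of 0.5, and FZD9 (0.79), outlined in black, is the gene with an unadjusted p below 0.05.

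Levels are given next by role, since they show which parts of the pathway these cells transcribed. To compare genes with one another, CPM values were divided by the length of the canonical transcript in kilobases (RPKM). The choice of transcript matters for genes with long alternative exons. With all annotated exons merged in its place, 40 of the 53 members kept their rank within their role, and the gene with the highest level was the same in each role.

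**Figure D2:**
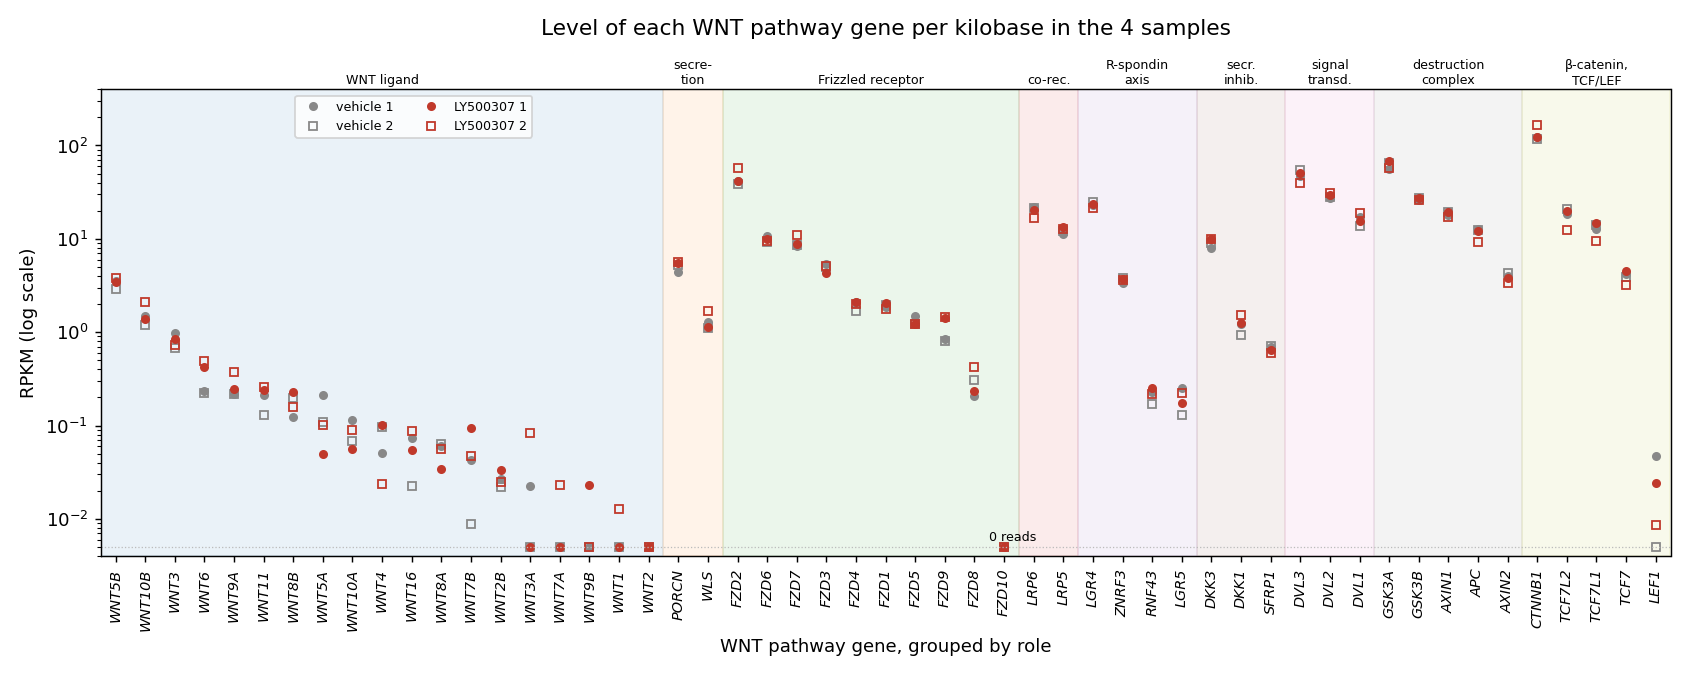
Level of each of the 53 WNT pathway genes in RPKM (log scale) in the 2 vehicle samples (grey) and the 2 LY500307 samples (red), grouped by role and ordered by mean level. Points on the dotted line stand for 0 reads, and the WNT ligands sit at 3.80 RPKM or below. CTNNB1 is the highest member by the canonical transcript, but not with all exons merged.

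The WNT ligands were transcribed at low levels. Of the 19 ligand genes, 10 did not pass the expression filter, and each of these had at most 13 reads in any sample. WNT2 had 0 reads in all samples, which allows up to 0.0859 CPM in the deepest library and 0.104 CPM in the shallowest (3 reads, counting error only). WNT1 had 1 read in 1 sample. All 19 ligands together summed to 7.36 and 5.96 RPKM in the vehicle samples and to 7.29 and 8.44 RPKM in the LY500307 samples. These sums overlap between the groups.

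WNT5B, a ligand linked mainly to signalling without β-catenin, had the highest level of the ligands. It had 3.50 and 2.91 RPKM in the vehicle samples and 3.46 and 3.80 RPKM in the LY500307 samples, so the groups overlapped (log2 fold change 0.18, standard error 0.19). WNT10B, which acts through β-catenin, came next with 1.49 and 1.21 RPKM in vehicle and 1.40 and 2.08 RPKM in LY500307 samples. On the log2 scale WNT10B differed by 0.37 (standard error 0.28), and only LY500307 replicate 2 lay above both vehicle samples. WNT5B was above WNT10B in every sample.

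WNT5A, the best-known ligand of β-catenin-independent signalling, had few reads. With vehicle it was read 37 and 18 times and with LY500307 10 and 19 times, or 1.23 and 0.633 CPM against 0.288 and 0.588 CPM. Both LY500307 samples were lower after scaling, but vehicle replicate 2 and LY500307 replicate 2 were close to each other. Its difference of -1.10 on the log2 scale (standard error 0.58, edgeR adjusted p = 0.458) did not meet the criteria. The value depended on which sample was left out. It was -0.54 without vehicle replicate 1, -0.66 without LY500307 replicate 1 and -1.68 without LY500307 replicate 2, which all missed the criteria, and -1.50 without vehicle replicate 2, which met them.

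WNT6 had the highest log2 fold change of the members. With vehicle it was read 12 and 11 times and with LY500307 25 and 27 times, or 0.400 and 0.387 CPM against 0.720 and 0.835 CPM. With so few reads, the closeness of the values within each group does not measure precision. The groups did not overlap, and the criteria were not met (log2 fold change 0.97, standard error 0.50, edgeR adjusted p = 0.449). WNT9A and WNT11 likewise lay higher in both LY500307 samples, with at most 49 reads, and did not meet the criteria. The other ligands tested were WNT3, WNT4 and WNT8B, whose groups overlapped.

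Ligand secretion depends on PORCN, which attaches the lipid to WNT proteins, and on WLS, which carries them to the cell surface. PORCN had 4.38 and 5.26 RPKM in the vehicle samples and 5.49 and 5.65 RPKM in the LY500307 samples. Both LY500307 samples were higher, by a log2 fold change of 0.21 (standard error 0.18) that did not meet the criteria. WLS was lower than PORCN in every sample, at 1.29 and 1.10 RPKM with vehicle and 1.12 and 1.70 RPKM with LY500307, and its groups overlapped.

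Frizzled receptors were dominated by FZD2. Of the 10 genes, 9 passed the filter, and FZD10 had 0 reads in all samples. FZD2 had 41.3 and 38.5 RPKM in the vehicle samples and 41.8 and 58.0 RPKM in the LY500307 samples. LY500307 replicate 1 was just above vehicle replicate 1 and replicate 2 was well above both. FZD2 had a difference of 0.32 on the log2 scale (standard error 0.15, edgeR adjusted p = 0.437), which did not meet the criteria, and leaving out LY500307 replicate 2 gave 0.07. Leaving out replicate 1 gave 0.54, which met them. FZD6 and FZD7 came next with means over all samples of 9.84 and 9.16 RPKM, and their order was exchanged when all exons were used. FZD6 lay between 9.15 and 10.8 RPKM in all samples with overlapping groups (log2 fold change -0.05, standard error 0.13). FZD7 was at 8.34 and 8.51 RPKM with vehicle and at 8.71 and 11.1 RPKM with LY500307, a difference that rested mainly on replicate 2. FZD3 followed at 4.92 RPKM, and FZD4, FZD1, FZD5 and FZD8 lay between 0.291 and 1.98 RPKM.

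FZD9 was the member that met the criteria. On GRCh37 it spans chromosome 7 from 72848108 to 72850450 (plus strand), and its annotated transcript is 1 exon of 2343 bases. It was read 59 and 54 times in the vehicle samples and 114 and 110 times in the LY500307 samples. Its level was 1.93 ± 0.0485 CPM (SD, n = 2) with vehicle and 3.34 ± 0.0838 CPM (SD, n = 2) with LY500307. Both LY500307 samples were higher than both vehicle samples. At these read counts, counting error alone is larger than these SDs, so the closeness of the values within each group does not measure precision. FZD9 was 1.73-fold higher with LY500307, at 0.79 on the log2 scale (standard error 0.26, edgeR adjusted p = 0.422). Its mean level of 1.13 RPKM over all samples was the eighth among the Frizzled genes, and the summed level of all 10 was 72.3 and 67.1 RPKM in the vehicle samples and 71.8 and 90.5 RPKM in the LY500307 samples. The criteria were missed without LY500307 replicate 2 (log2 fold change 0.76, where the remaining sample is taken to vary like the vehicle pair), without vehicle replicate 2 (0.76) and with a correction for exonic GC content (0.59).

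Promoter sequences are shown for FZD9, as the member that met the criteria, and for DKK1, as the member with a match to the TCF/LEF motifs searched for. They are also shown for RSPO3, a pathway gene outside the members that was lower with LY500307. The sequences run from 250 bases before to 50 bases after the annotated start and are those of RefSeq on GRCh38.p14, a later build than that of the counts. Of the 53 members, 39 had an entry, with 49 promoters in all. Capitals mark a motif, and all other letters are in lower case.
FZD9, chr7:73433528-73433827, plus strand: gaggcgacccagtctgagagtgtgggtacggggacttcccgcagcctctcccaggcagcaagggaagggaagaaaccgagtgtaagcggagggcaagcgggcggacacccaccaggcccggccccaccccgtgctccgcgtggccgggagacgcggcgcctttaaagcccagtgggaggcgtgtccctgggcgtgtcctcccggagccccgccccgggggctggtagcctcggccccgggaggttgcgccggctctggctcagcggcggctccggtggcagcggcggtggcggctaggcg
DKK1, chr10:52314031-52314330, plus strand: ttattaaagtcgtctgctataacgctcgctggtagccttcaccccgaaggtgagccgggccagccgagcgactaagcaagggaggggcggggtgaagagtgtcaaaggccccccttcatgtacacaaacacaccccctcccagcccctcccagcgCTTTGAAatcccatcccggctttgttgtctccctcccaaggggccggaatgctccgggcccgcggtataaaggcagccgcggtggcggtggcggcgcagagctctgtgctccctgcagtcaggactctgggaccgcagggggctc
RSPO3, chr6:127118421-127118720, plus strand: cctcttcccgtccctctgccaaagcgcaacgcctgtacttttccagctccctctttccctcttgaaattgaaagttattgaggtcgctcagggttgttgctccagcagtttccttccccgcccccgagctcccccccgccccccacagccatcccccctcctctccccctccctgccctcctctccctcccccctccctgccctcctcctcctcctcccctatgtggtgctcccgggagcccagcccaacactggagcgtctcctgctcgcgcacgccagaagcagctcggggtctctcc

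The FZD9 promoter had a GC content of 73.7% and 31 CG pairs, that of DKK1 63.7% and 20, and that of RSPO3 65.3% and 13, beside a median GC content of 58.7% over all 35116 promoters in the table. The estrogen half-site GGTCA, on either strand (TGACC), was found in 15 of the 49 member promoters and in 37.4% of all promoters, and it was in none of the promoters shown. A full estrogen response element, taken as GGTCA and TGACC separated by 3 bases, was found in 0 of the 49 and in 0.057% of all promoters. The TCF/LEF motifs CTTTGAT and CTTTGAA, on either strand (ATCAAAG and TTCAAAG), were found in 1 member promoter, that of DKK1, and in 6.86% of all promoters. Other forms of the TCF/LEF motif were not searched for and are not marked. A match is a run of letters in this window and not a site of binding.

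The co-receptors LRP6 and LRP5, which bind WNT together with Frizzled, had small log2 fold changes of opposite sign. LRP6 had 21.8 and 21.2 RPKM with vehicle and 20.4 and 16.8 RPKM with LY500307, so that both LY500307 samples were lower (log2 fold change -0.21, standard error 0.12, adjusted p = 0.477 with edgeR). LRP5 had 11.4 and 12.1 RPKM with vehicle and 13.5 and 12.7 RPKM with LY500307, so that both were higher (log2 fold change 0.16, standard error 0.11, adjusted p = 0.528 with edgeR). Neither met the criteria, and LRP6 stayed above LRP5 in every sample. Leaving out LY500307 replicate 2 gave -0.08 for LRP6, and leaving out replicate 1 gave -0.35.

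In the R-spondin axis, LGR4 had the highest level, with a mean of 23.2 RPKM. LGR4 had 121 and 131 CPM with vehicle and 123 and 112 CPM with LY500307, with overlapping groups (log2 fold change -0.10, standard error 0.10). LGR5, a β-catenin target and a marker of stem cells in the intestine, was read only 35 and 17 times with vehicle and 28 and 33 times with LY500307. Its groups overlapped, and its log2 fold change of 0.04 had a standard error of 0.48. The ubiquitin ligase ZNRF3 had between 3.36 and 3.83 RPKM with overlapping groups (log2 fold change 0.03, standard error 0.13). RNF43, the other ubiquitin ligase of this kind, had between 22 and 40 reads. None of the 4 genes met the criteria.

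Among secreted inhibitors, DKK3 had the highest level, with 8.07 and 8.99 RPKM in the vehicle samples and 9.89 and 9.96 RPKM in the LY500307 samples. With all exons merged, its mean over all samples was 1.95 RPKM in place of 9.23. Both LY500307 samples were higher, by 0.22 on the log2 scale (standard error 0.13, edgeR adjusted p = 0.50), a difference that did not meet the criteria. DKK1, which blocks LRP5 and LRP6 and is itself a β-catenin target, had 67 and 48 reads with vehicle and 79 and 90 reads with LY500307 (log2 fold change 0.36, standard error 0.30, adjusted p = 0.606 with edgeR). SFRP1, which binds WNT ligands, lay between 2.66 and 3.17 CPM, and both LY500307 samples were the lower ones. The exons of DKK3 overlap those of USP47 on the other strand, and the strand setting of the counting was not stated. Such overlaps also occur for DVL1 (TAS1R3), FZD4 (PRSS23), WNT2 (CFTR) and WNT2B (ST7L).

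The Dishevelled genes carried reads in the order DVL3, DVL2 and DVL1. DVL3 had 47.6 and 54.1 RPKM with vehicle and 50.6 and 39.5 RPKM with LY500307, where only replicate 2 was below both vehicle samples (log2 fold change -0.17, standard error 0.14). DVL2 had 27.3 and 27.9 RPKM with vehicle and 29.2 and 31.0 RPKM with LY500307, where both LY500307 samples were higher (log2 fold change 0.13, standard error 0.10, adjusted p = 0.589 with edgeR). Neither met the criteria.

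In the destruction complex, the kinase genes GSK3A and GSK3B had the highest levels. With all exons merged, the mean over all samples was 23.4 RPKM in place of 61.6 for GSK3A and 11.6 RPKM in place of 26.8 for GSK3B. Some exons of GSK3A overlap those of ZNF526 on the other strand. GSK3A had 56.2 and 64.5 RPKM with vehicle and 67.7 and 57.9 RPKM with LY500307, and GSK3B lay between 26.1 and 27.7 RPKM in all samples. The groups overlapped for both genes, with log2 fold changes of 0.06 (standard error 0.12) and 0.01 (standard error 0.10). The scaffold AXIN1 also overlapped, at 18.6 RPKM over all samples. AXIN2, the scaffold that is itself induced by β-catenin and is often read as a measure of pathway output, had 508 and 521 reads with vehicle and 557 and 463 reads with LY500307. Scaled to library size these were 16.9 and 18.3 CPM against 16.0 and 14.3 CPM, so that both LY500307 samples were lower after scaling. For AXIN2 the difference was -0.22 on the log2 scale (standard error 0.15, edgeR adjusted p = 0.540) and did not meet the criteria. APC was also lower in both LY500307 samples, at 131 and 99.9 CPM beside 137 and 133 CPM, and did not meet the criteria (log2 fold change -0.22, standard error 0.14).

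CTNNB1, which encodes β-catenin, was the member with the highest level per length of the canonical transcript. It had 124 and 119 RPKM with vehicle and 125 and 166 RPKM with LY500307, and 418 of 13643 genes had a higher mean. With all exons merged, its mean over all samples was 41.5 RPKM in place of 133, below the 44.9 RPKM of FZD2. LY500307 replicate 1 was close to both vehicle samples and replicate 2 was above them. CTNNB1 had a difference of 0.26 on the log2 scale (standard error 0.15, edgeR adjusted p = 0.475), which fell short of the criteria. Leaving out LY500307 replicate 2 gave 0.04, and leaving out replicate 1 gave 0.45.

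Among the TCF/LEF factors, TCF7L2 had the highest level, followed by TCF7L1 and TCF7, while LEF1 had between 0 and 5 reads and was not tested. TCF7L2 had 18.6 and 20.8 RPKM with vehicle and 19.9 and 12.6 RPKM with LY500307. Replicate 1 lay within the vehicle range and replicate 2 lay below it. TCF7L2 had a difference of -0.27 on the log2 scale (standard error 0.20, edgeR adjusted p = 0.556), which became 0.02 without LY500307 replicate 2 and -0.64 without LY500307 replicate 1. TCF7L1 had 38.5 and 42.4 CPM in the vehicle samples and 43.8 and 28.5 CPM in the LY500307 samples, so that LY500307 replicate 1 was the highest of the samples and replicate 2 the lowest. TCF7 had 13.7 and 12.9 CPM with vehicle and 14.8 and 10.6 CPM with LY500307, and some of its exons overlap those of SKP1 on the other strand.

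The LY500307 samples differed from each other more than the vehicle samples did. The median absolute log2 difference between replicates over the members tested was 0.16 in the vehicle pair and 0.23 in the LY500307 pair, and it was 0.11 and 0.22 over all genes tested. The LY500307 pair was the wider one for 26 of 41 members, beside 66.7% of all genes tested. Each LY500307 sample was also set against the vehicle mean, and 28 of the 41 members had the same sign in both, which is 68.3%, as it was for all genes tested. FZD9 was at 0.76 and 0.82 on the log2 scale in replicates 1 and 2, and WNT6 was at 0.87 and 1.09. By contrast, CTNNB1 was at 0.04 and 0.45, FZD2 at 0.07 and 0.54, WNT10B at 0.06 and 0.63, and TCF7L2 at 0.02 and -0.64. Without LY500307 replicate 1, FZD2, FZD9 and WNT10B met the criteria as higher and TCF7L1 and TCF7L2 as lower, and 13.3% of all genes tested met them in that fit.

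**Figure D3:**
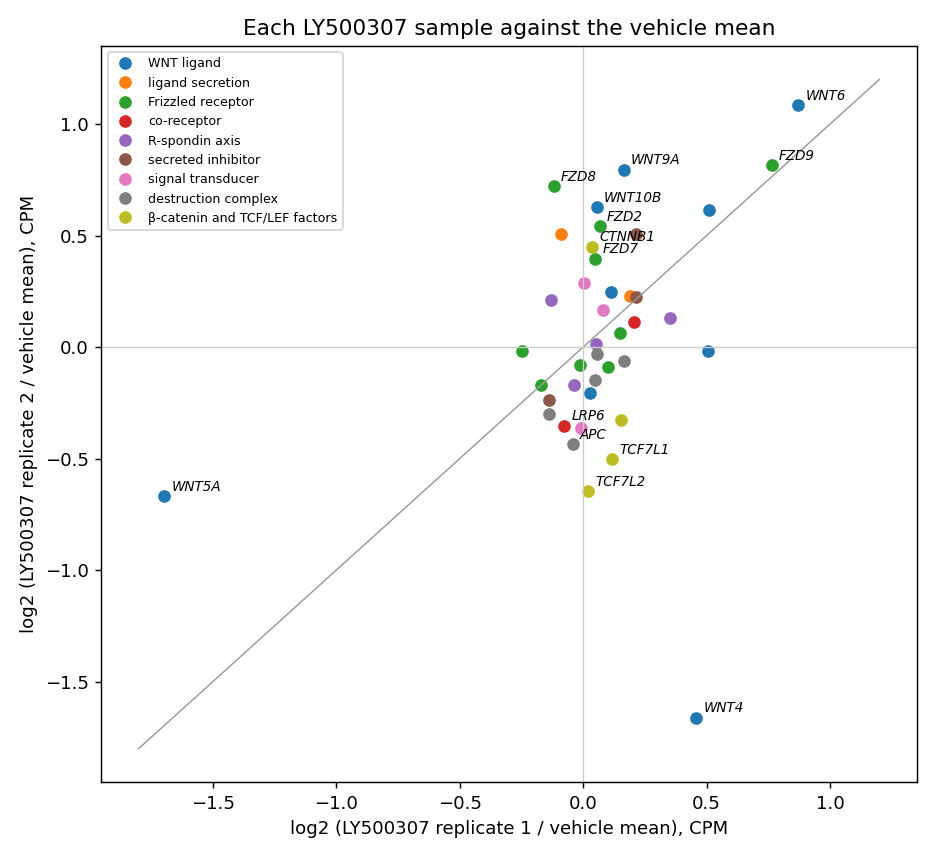
Log2 ratio of CPM in LY500307 replicate 1 (horizontal axis) and replicate 2 (vertical axis) to the vehicle mean for the 41 WNT pathway genes tested, coloured by role, with the line of equal values. FZD9 (0.76 and 0.82) lies near the line, whereas CTNNB1 (0.04 and 0.45) and TCF7L2 (0.02 and -0.64) differ between the replicates.

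The GC content of the exons moved with the log2 fold changes. Across the 41 members tested, Pearson's r between exonic GC content and log2 fold change was 0.52 (Spearman's rho 0.45), and across 13804 genes with a GC value it was 0.27 (rho 0.33). For the log2 difference of LY500307 replicate 2 from replicate 1, r was -0.01 over the members and 0.19 over all genes. For the same difference in the vehicle pair, r was 0.24 over the members and 0.01 over all genes. These are descriptions across genes, which share the same 4 libraries and are not independent replicates. The members with the highest GC content were WNT6 at 70.4% and FZD9 at 68.5%, and FZD3 had the lowest at 35.0%. With log2 CPM corrected for GC content in each sample, 0 members met the criteria or had an unadjusted p below 0.05 with edgeR, and the log2 fold change of FZD9 was 0.59. In that fit 3.82% of all genes tested met the criteria and 9.70% had an unadjusted p below 0.05. The part of GC content in the difference of FZD9 was not tested beyond this correction.

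**Figure D4:**
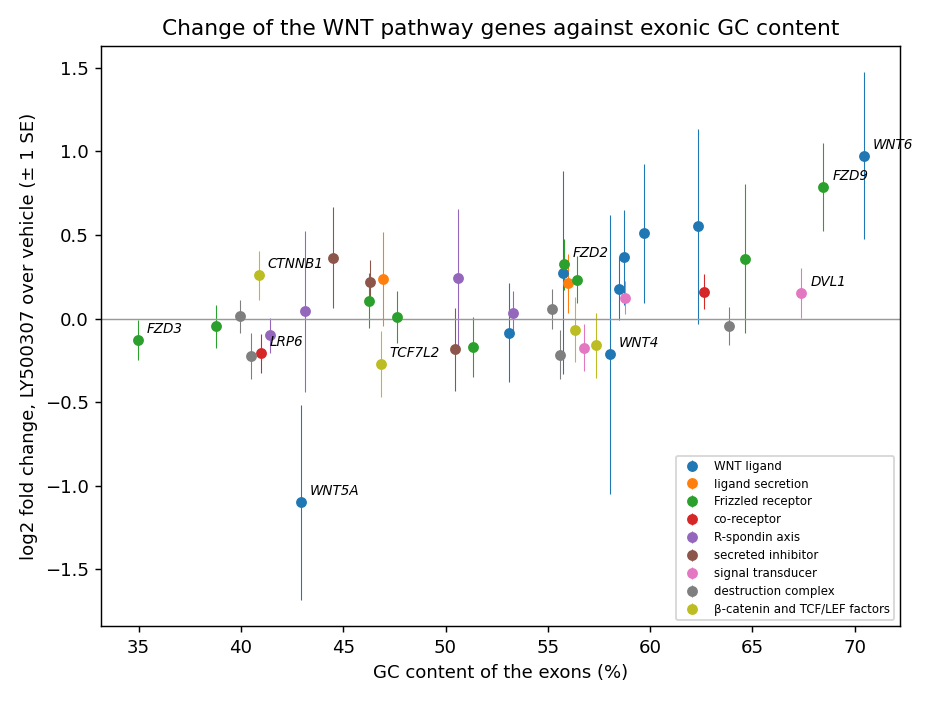
Log2 fold change (LY500307 over vehicle, ± 1 standard error) of the 41 WNT pathway genes tested against the GC content of their exons in percent, coloured by role. WNT6 (70.4%) and FZD9 (68.5%) are at the right and upper end, and WNT5A has the lowest log2 fold change (-1.10).

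Other genes of the pathway were taken from 5 lists of receptors, secreted regulators, cytoplasmic regulators, nuclear co-factors and β-catenin targets, together 117 genes. Of these, 99 were tested, and 3 were higher and 1 was lower by the criteria, beside 2.76% and 1.86% of all genes tested. Their median log2 fold change was -0.01. With an adjusted p below 0.05, edgeR gave 0 of them. Besides the 3 and 1 genes that met the criteria, 2 more had an unadjusted p below 0.05 but missed the size criterion. The 11.6% of all genes tested with such a p counts both kinds, those that meet the criteria and those that miss the size criterion. The 2 that missed it were APC2, a relative of APC (log2 fold change 0.48, standard error 0.14), and the growth factor gene VEGFA (log2 fold change -0.29, standard error 0.11).

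RSPO3, an R-spondin that acts through LGR receptors, was the gene that was lower. It was read 123 and 92 times in the vehicle samples and 76 and 52 times in the LY500307 samples. Its level was 3.67 ± 0.613 CPM (SD, n = 2) with vehicle and 1.90 ± 0.411 CPM (SD, n = 2) with LY500307, and the groups did not overlap. RSPO3 had a difference of -0.95 on the log2 scale (standard error 0.29, edgeR adjusted p = 0.422). RSPO3 met the criteria with DESeq2 and with the GC correction too, and it missed them without vehicle replicate 1 (log2 fold change -0.77).

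PPP2R1A, the scaffold subunit of the phosphatase PP2A, was higher by the criteria, but mainly in 1 sample. It had 245 and 229 CPM with vehicle and 255 and 420 CPM with LY500307 (log2 fold change 0.51, standard error 0.21, adjusted p = 0.428 with edgeR), and without LY500307 replicate 2 the log2 fold change was 0.11. It also missed the criteria without vehicle replicate 1 (0.56), without vehicle replicate 2 (0.46), with the GC correction (0.44), with the replicate block (0.47), with the crossed block (0.47) and with the replicate block and GC correction (0.40). SOX17, a transcription factor that can bind β-catenin, rested on 3 and 5 reads with vehicle and 21 and 14 reads with LY500307 (log2 fold change 1.89, standard error 0.69, adjusted p = 0.422 with edgeR). It missed the criteria with DESeq2 (1.92), with all genes of at least 1 count (1.89), without vehicle replicate 1 (1.54), without LY500307 replicate 1 (1.63) and without LY500307 replicate 2 (2.11). JUN, a subunit of AP-1 and a listed β-catenin target, had 6.91 and 5.24 CPM with vehicle and 8.70 and 8.60 CPM with LY500307 (log2 fold change 0.51, standard error 0.20, adjusted p = 0.428 with edgeR). JUN missed the criteria without vehicle replicate 2 (0.32), with DESeq2 (0.51), with the GC correction (0.43), with the length correction (0.49) and with the replicate block joined to the GC correction (0.44) or the length correction (0.50).

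The β-catenin target list held 25 genes, of which 20 were tested, and its median log2 fold change was 0.0015. MYC, a transcription factor, had 153 and 148 CPM with vehicle and 161 and 140 CPM with LY500307, with overlapping groups (log2 fold change 0.00108, standard error 0.11). CCND1, which encodes cyclin D1, had 345 and 345 CPM with vehicle and 371 and 351 CPM with LY500307, so that both LY500307 samples were slightly higher (log2 fold change 0.07, standard error 0.10) without meeting the criteria.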

How the data were processed

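The authors aligned 50-base single-end reads to hg19 with TopHat2 2.0.8b and used HTSeq, per the submitters' processing notes. The deposited files hold raw counts for each gene symbol and sample, without normalization. The strand setting and annotation of the counting are not given in the sources used here. The tally lines for reads on no gene were left out. Between 20199775 and 24562268 records per sample were tallied as not uniquely aligned, apart from the genes.

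The counts were normalized by TMM and tested with edgeR 4.0.16 in R 4.3.3 (filterByExpr, quasi-likelihood test, Benjamini-Hochberg adjustment over all 14473 genes tested). The standard error is the absolute log2 fold change divided by the square root of F. CPM use TMM-scaled library sizes. DESeq2 1.42.0 was an alternative. Exonic length, GC content and positions came from GENCODE on GRCh37, the assembly of hg19, to which 91.8% of symbols were matched, all 53 members among them. The GC and length corrections use a loess curve (span 0.3) per sample as offsets. The main edgeR fit was tested on simulated counts, and the alternatives were not. The simulation gave both groups the same spread for each gene. It therefore cannot show how the fit behaves where the groups differ in spread, as they do here. Replicates differed beyond sampling noise, with a chi-square over its degrees of freedom of 4.79 between vehicle samples and 36.5 between LY500307 samples.

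The members and lists were chosen with earlier results of these data known. Genes named with values are members with an unadjusted p below 0.05, the 2 with the highest level per length in each role, the 2 highest and 2 lowest by log2 fold change, CTNNB1, AXIN2, LEF1, LGR5 and WNT5A, listed pathway genes that met the criteria, MYC and CCND1. Others named were chosen after their values were seen. Of 117 listed genes, 116 were found in the files.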

Additional observations from a re-analysis of the deposited data

How the results depend on the processing

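Alternatives were DESeq2, edgeR with other scaling (DESeq2 size factors or library totals), other filters on low counts, GC and length corrections, a replicate block and leaving out each sample. The crossed block and the use of all exons for length were chosen after seeing the data. With all samples kept, 0 members were lower in every fit. Members higher by the criteria numbered 1, except for 0 under the GC correction and 0 under the replicate block joined with it. Members with an unadjusted p below 0.05 numbered 2 with DESeq2, 2 with all genes of at least 1 count, 3 with the crossed block, 0 under the GC correction and 0 under the replicate block joined with it, where 7.69%, 11.6%, 16.5%, 9.70% and 9.70% of all genes in these fits had one. Other pathway genes meeting the criteria numbered 2 in each of DESeq2, the GC correction and the replicate block joined with it. The median log2 fold change of the members was 0.025 with at least 1 CPM in all samples, 0.093 with library totals, 0.099 with the length correction, 0.085 with the replicate block, 0.099 with the replicate block and length correction and 0.090 with the crossed block. The cause of these shifts was not tested.

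With 1 sample left out, members higher ranged from 0 to 3, members lower from 0 to 2, members with an unadjusted p below 0.05 from 1 to 13, other pathway genes from 1 to 10 and the median from 0.019 to 0.084. An unadjusted p below 0.05 was found for 40.3% of all genes without LY500307 replicate 1 (13 of 41 members), 15.3% without LY500307 replicate 2 (3 of 43), 5.05% without vehicle replicate 1 (1 of 43) and 5.00% without vehicle replicate 2 (1 of 43). A fit with 1 LY500307 sample takes its spread from the vehicle pair. The highest counts of members and of other pathway genes all came from the fit without LY500307 replicate 1. In that fit 13.3% of all genes tested met the criteria. This share was 2.37% without LY500307 replicate 2, 4.81% without vehicle replicate 1 and 4.78% without vehicle replicate 2. Whether the counts of pathway genes differed from these shares was not tested. Over all genes tested, 669 met the criteria with all samples, 1987 without LY500307 replicate 1, 352 without LY500307 replicate 2, 714 without vehicle replicate 1 and 712 without vehicle replicate 2. An adjusted p below 0.05 was given to 0 genes by edgeR, to 16 by DESeq2, to 1 with the replicate block, to 3 with the block and GC correction, to 172 with the block and length correction to 381 with the crossed block, to 5002 without LY500307 replicate 1 and to 590 without LY500307 replicate 2.

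Signs turned for small log2 fold changes. Under the GC correction they were -0.0044 for CCND1, 0.077 for FZD6, -0.024 for GSK3A, -0.058 for MYC and -0.045 for ZNRF3, and under the replicate block joined with it -0.0055, 0.082, -0.027, -0.062 and -0.043. MYC was at -0.0022 with the replicate block and at -0.0022 with the crossed block. With 1 sample left out the range was -0.16 to 0.080 for FZD6, -0.059 to 0.17 for GSK3A, -0.028 to 0.058 for GSK3B, -0.35 to 0.61 for LGR5, -0.10 to 0.10 for MYC, -0.64 to 0.024 for TCF7L2, -0.087 to 0.51 for WLS and -0.058 to 0.13 for ZNRF3.

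Deviations of samples with the same replicate number had correlations of -0.07 over all genes tested and -0.23 over genes above the median level. These correlations run across genes of the same libraries, which are not independent replicates. They cannot decide whether samples with the same number shared a culture or batch, and this was not tested. The replicate block kept 1 member by the criteria, FZD9, with a log2 fold change of 0.79. Members tested with at most 55 reads in every sample, among them 6 of the 9 WNT ligands tested, had standard errors of 0.41 or more.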

Other observations

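Receptors outside the Frizzled family were also read in these cells, as values with no test of the difference between genes. PTK7, a WNT co-receptor without kinase activity, had a mean over all samples of 43.1 RPKM and a log2 fold change of 0.18. RYK, another receptor of this kind, had 37.3 RPKM and a log2 fold change of -0.19. ROR2 had 1.10 RPKM, and ROR1 had between 4 and 14 reads in each sample. The planar polarity gene VANGL2 had 22.4 RPKM and a log2 fold change of -0.03. None of these genes had an unadjusted p below 0.05 with edgeR.

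Among the secreted regulators, WIF1, which binds WNT ligands, had 11.8 RPKM, above the 9.23 RPKM of DKK3. The R-spondin genes RSPO1 and RSPO2 had at most 6 reads in any sample, and RSPO4 had between 10 and 23. In the target list, CD44, a surface glycoprotein often used to mark cancer stem cells, had between 3 and 16 reads, and SP5 had 1.99 RPKM with a log2 fold change of 0.00. NKD1, an inhibitor that is also a β-catenin target, had 111 and 102 reads with vehicle and 101 and 65 reads with LY500307, a log2 fold change of -0.56 that did not meet the criteria.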
